A study of Arabidopsis thaliana with 6 samples.

Results

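The expression data compared the libraries labelled *sep1 sep2 sep3* with the *sep1 sep2* libraries, to ask which transcripts of the inflorescence depend on *SEP3* when *SEP1* and *SEP2* are already mutant. Both genotypes carry the *sep1* and *sep2* mutations, and the libraries labelled *sep1 sep2 sep3* carry the *sep3* mutation in addition. Each genotype has 2 libraries of poly A RNA from inflorescence meristems with young flower buds of *Arabidopsis thaliana*, from plants grown in parallel in long days. A further 2 libraries, from *sep1 sep2 sep3* plants of independent lines expressing *SEP3*, entered the model fit and are given side by side as SEP3 line 1 and line 2. Wild type was not analysed here. Of 33610 genes with counts in the files, the 18860 genes with at least 1 CPM (a count scaled to library size) in 2 or more of the 4 compared libraries were tested. The labels do not say whether replicates came from separate plants, so that p-values measure only the spread between these libraries.

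The SEPALLATA proteins are MADS transcription factors that join the other floral organ identity factors in tetrameric complexes, and they act redundantly. When *SEP1*, *SEP2* and *SEP3* are all lost, sepal-like organs are known to replace petals, stamens and carpels, and the flower becomes indeterminate. Stamens carry the anthers, in which a nursing cell layer, the tapetum, feeds the meiotic cells and makes the pollen wall, while ovules form inside the carpels.

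Counts per library ranged from 24302449 to 30628863 over the 4 compared libraries. The genotype label was first set against the *SEP3* gene itself (AT1G24260, chromosome 1, 8593536 to 8596123, minus strand, TAIR10.1). *SEP3* was at 131 and 136 CPM in *sep1 sep2*, at 149 and 150 CPM in those labelled *sep1 sep2 sep3* and at 490 and 333 CPM in SEP3 lines 1 and 2. The log2 fold change between the compared genotypes was 0.16 (SE 0.17, FDR 0.555), so counts over the gene do not separate them. Counts per gene do not show whether a transcript is intact, and this was not tested. The labelled tissue was checked with its markers. The meristem gene *STM* was at 51.0 and 50.1 CPM in *sep1 sep2* and at 51.2 and 59.6 CPM in those labelled *sep1 sep2 sep3*. Of 11 seed storage and embryo genes none passed the filter, and of 10 root genes 2 did. The root list summed to 41 and 34.9 CPM in *sep1 sep2* and to 52.2 and 67.1 CPM in those labelled *sep1 sep2 sep3*. Of its tested genes 1 was called lower, the iron transporter *IRT1*, at 3.11 and 1.33 CPM against 0 and 0 CPM.

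At a log2 fold change beyond 1 and a Benjamini-Hochberg FDR under 0.05 in edgeR's quasi-likelihood test, 1354 genes were lower (7.18% of the genes tested) and 179 were higher (0.949%) in the libraries labelled *sep1 sep2 sep3*. Lower genes made up 88.3% of all calls. The falls were also deeper than the rises. The median log2 fold change was -2.65 over the lower genes and 1.39 over the higher genes, while over all genes tested it was -0.01. Among the lower genes 905 fell by more than 2 log2 units and 178 by more than 5, and 143 were left with at most 3 counts in each of the libraries labelled *sep1 sep2 sep3*. Among the higher genes 36 rose by more than 2 log2 units and 0 by more than 5. In bulk tissue, fewer cells of a type and less RNA per cell cannot be told apart.

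The lower genes together took 3.49 and 3.45% of the counts in *sep1 sep2*, 0.829 and 0.69% in those labelled *sep1 sep2 sep3*, and 2.8 and 2.24% in the SEP3 lines. The share of genes called lower was 18.2% among genes with 1 to 5 CPM in *sep1 sep2*, 9.22% from 5 to 20 CPM, 2.96% from 20 to 100 CPM and 3.35% above 100 CPM. A further 167 genes had a mean under 1 CPM in *sep1 sep2* and needed the other group to pass the filter, and of these 0 were lower and 19.2% were higher. Leaving out replicate 2 of the libraries labelled *sep1 sep2 sep3* reduced the lower genes to 765 and the higher genes to 66, and leaving out *sep1 sep2* replicate 2 reduced the higher genes to 76.

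**Figure D1:**
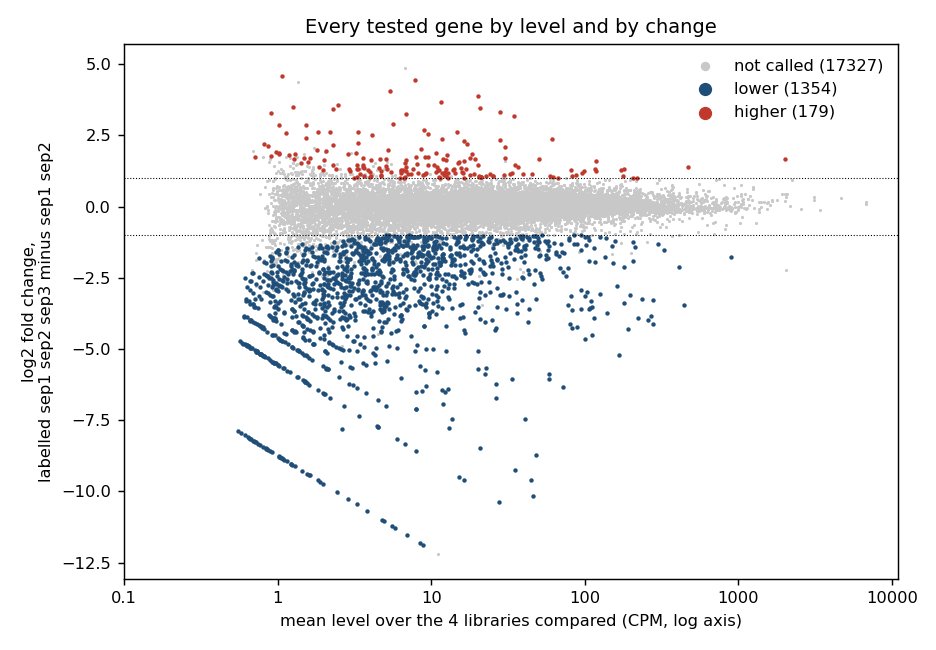
Each point is a tested gene, with its mean CPM over the 4 compared libraries on a log axis and its log2 fold change (labelled *sep1 sep2 sep3* minus *sep1 sep2*) on the vertical axis, and dotted lines mark a change of 1 log2 unit. The 1354 lower genes spread far below the lines and the 179 higher genes stay closer to them. Slanting rows of points at the bottom are genes with few or 0 counts in either replicate labelled *sep1 sep2 sep3*, for which the fitted value depends on the prior count.

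Genes that specify floral organs were looked at first. Of 10 tested MADS genes of floral organ identity, 0 were called lower and 1 was called higher, with a list median of 0.06. Over all genes tested 7.18% were lower and 0.949% were higher, and 10 genes are too few to set against these shares. *AG*, which specifies stamens and carpels, was at 76.8 and 89.8 CPM in *sep1 sep2* and at 78.1 and 71.9 CPM in those labelled *sep1 sep2 sep3* (log2 fold change -0.15, SE 0.14, FDR 0.516). *AP3*, which specifies petals and stamens, was at 126 and 135 CPM against 124 and 130 CPM. The levels of both genes overlapped between the genotypes. *PI*, the partner of *AP3*, was at 131 and 168 CPM against 99.6 and 106 CPM, below the fold threshold (log2 fold change -0.54, FDR 0.0275). *AP1*, which specifies sepals and the floral meristem, was at 215 and 206 CPM in *sep1 sep2* and at 383 and 371 CPM in those labelled *sep1 sep2 sep3*. This difference of 0.84 log2 units (SE 0.10, FDR 0.00225) was larger than the spread between replicates but under the fold threshold. *CAL*, the closest relative of *AP1*, rose from 8.4 and 4.38 CPM to 15.5 and 14.5 CPM (log2 fold change 1.23, FDR 0.0237), and lost its call in 3 of the 4 fits that left out a library. *CAL* lies 0.51 Mb from *SEP3*, and its SEP3 lines had 11.3 and 13.2 CPM. *SEP2*, mutant in both genotypes, was at 79.6 and 44.4 CPM against 15.5 and 11.5 CPM and was not called (log2 fold change -2.21, SE 0.74, FDR 0.0867), and the SEP3 lines had 16.7 and 109 CPM. *SEP1*, also mutant in both, was at 2.63 and 2 CPM against 5.57 and 4.68 CPM (log2 fold change 1.14, SE 0.36, FDR 0.0714). *SEP4* was at 25.9 and 28.4 CPM against 40.7 and 46.2 CPM (log2 fold change 0.68, FDR 0.0401).

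Of 13 tested genes of the shoot and floral meristem, 2 were lower (15.4%, against 7.18% over all genes) and 0 were higher, with a median of 0.34. *WUS*, which maintains the stem cells of the meristem, fell from 4.38 and 6.8 CPM to 2.25 and 1.45 CPM (log2 fold change -1.60, SE 0.34, FDR 0.0197). *TFL1*, which keeps the inflorescence meristem from turning into a flower, fell from 14.7 and 7.59 CPM to 4.57 and 3.1 CPM. Both SEP3 lines had *TFL1* at 2.95 and 4.68 CPM, in the range of the libraries labelled *sep1 sep2 sep3*. Without replicate 2 of the libraries labelled *sep1 sep2 sep3* the list had 0 calls. *WUS* also lost its call without *sep1 sep2* replicate 2, and *TFL1* without *sep1 sep2* replicate 1 or replicate 1 of the libraries labelled *sep1 sep2 sep3*. Of 9 organ boundary genes, *CUC2* alone was called, at 11.8 and 13.3 CPM against 5.16 and 5.46 CPM (log2 fold change -1.24, FDR 0.00462).

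Among 11 MADS genes of flowering time, 3 were lower (27.3%, against 7.18% over all genes) and 0 were higher. *FLC*, a repressor of flowering, fell 16.7-fold from 3.3 and 5.38 CPM to 0.25 and 0.27 CPM (log2 fold change -4.03, SE 0.51, FDR 0.00261). *AGL18* fell from 14.1 and 16.7 CPM to 4.49 and 4.38 CPM and *AGL15*, a relative that also represses flowering, from 5.93 and 7.09 CPM to 2.41 and 3.17 CPM. In all of these genes the SEP3 lines were above both libraries labelled *sep1 sep2 sep3*, for example *FLC* at 4.68 and 2.42 CPM.

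Genes of carpels were divided. Of 14 tested genes of carpel patterning, 5 were lower (35.7%, against 7.18% over all genes) and 1 was higher, with a median of -0.01. *CRC*, a YABBY factor of carpels and nectaries, was at 46.6 and 55.6 CPM in *sep1 sep2* and at 14.0 and 9.57 CPM in those labelled *sep1 sep2 sep3* (log2 fold change -2.12, SE 0.22, FDR 0.00129). *HEC2* and *HEC3*, bHLH factors of the transmitting tract and stigma, fell 15.4-fold and 5.63-fold. *NGA4*, a factor of style development, fell from 6.01 and 5.84 CPM to 1.5 and 1.15 CPM, and its SEP3 lines stood between the genotypes at 2.77 and 2.02 CPM. Its paralog *NGA3*, named here after its values were seen, rose from 10.0 and 7.72 CPM to 19.8 and 20 CPM (log2 fold change 1.16, FDR 0.00629), and was not called without *sep1 sep2* replicate 2. *ALC*, which acts in fruit opening, was at 38.4 and 40.6 CPM against 50.0 and 43.1 CPM (FDR 0.178).

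The ovule list fell more evenly, with 6 of 8 tested genes lower (75%, against 7.18% over all genes), 0 higher and a median of -2.32. *STK*, the MADS factor of ovule identity (AT4G09960, chromosome 4, 6236375 to 6241281), was at 11.2 and 9.01 CPM in *sep1 sep2*, at 0 and 0.135 CPM in those labelled *sep1 sep2 sep3* and at 9.94 and 3.63 CPM in the SEP3 lines. It was 150-fold lower (log2 fold change -7.01, SE 0.80, FDR 0.00173), and the groups were far apart. *SHP1* and *SHP2*, paralogs that act with *STK* in ovules and pattern the fruit valve margin, fell 5.02-fold and 10.2-fold. *SHP1* went from 11.2 and 10.8 CPM to 2.45 and 1.92 CPM, and *SHP2* from 3.34 and 4.0 CPM to 0.582 and 0.135 CPM. *VDD*, a B3 factor needed in the embryo sac, fell from 4.78 and 8.3 CPM to 1.08 and 1.45 CPM. The 2 members not called were *ANT* and *BEL1*, which act in ovule primordia but also elsewhere in the inflorescence. *ANT* was at 141 and 148 CPM against 160 and 159 CPM, so that the summed level of the list, 200 and 210 CPM against 183 and 179 CPM, does not show the fall of its other members.

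MADS factors bind the CArG box, and the bases before the start sites of *SHP2* and *STK* are shown because these ovule genes stand for the fall within the MADS family itself. The windows are the 300 bases before the annotated start in RefSeq TAIR10.1, at chr2:17819814-17820113 on the plus strand for *SHP2* and at chr4:6241282-6241581 on the minus strand for *STK*, with the CArG box in capitals.
SHP2: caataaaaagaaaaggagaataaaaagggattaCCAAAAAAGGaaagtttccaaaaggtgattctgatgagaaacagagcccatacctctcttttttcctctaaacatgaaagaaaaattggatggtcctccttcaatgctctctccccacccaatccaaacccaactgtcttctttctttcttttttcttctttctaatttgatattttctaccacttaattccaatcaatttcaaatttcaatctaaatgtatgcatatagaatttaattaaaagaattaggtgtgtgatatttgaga
STK: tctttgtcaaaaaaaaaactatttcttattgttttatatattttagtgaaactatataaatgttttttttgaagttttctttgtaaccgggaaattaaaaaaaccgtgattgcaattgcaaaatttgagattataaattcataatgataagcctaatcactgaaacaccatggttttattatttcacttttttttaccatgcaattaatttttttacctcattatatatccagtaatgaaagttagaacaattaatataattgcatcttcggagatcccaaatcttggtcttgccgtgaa
The *SHP2* window held 1 CArG box, which begins 267 bases before the start, and the *STK* window held 0. Over all tested genes with such a window 3.03% held a CArG box, against 2.54% of the lower and 1.74% of the higher genes. Only the strict box, CC and GG around a run of A and T bases, was searched. Non-canonical boxes, such as the paper describes in the *KNU* promoter, and sites outside the window were not counted. A match is a description of the sequence and not of binding, and neither is the lack of a match.

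**Figure D2:**
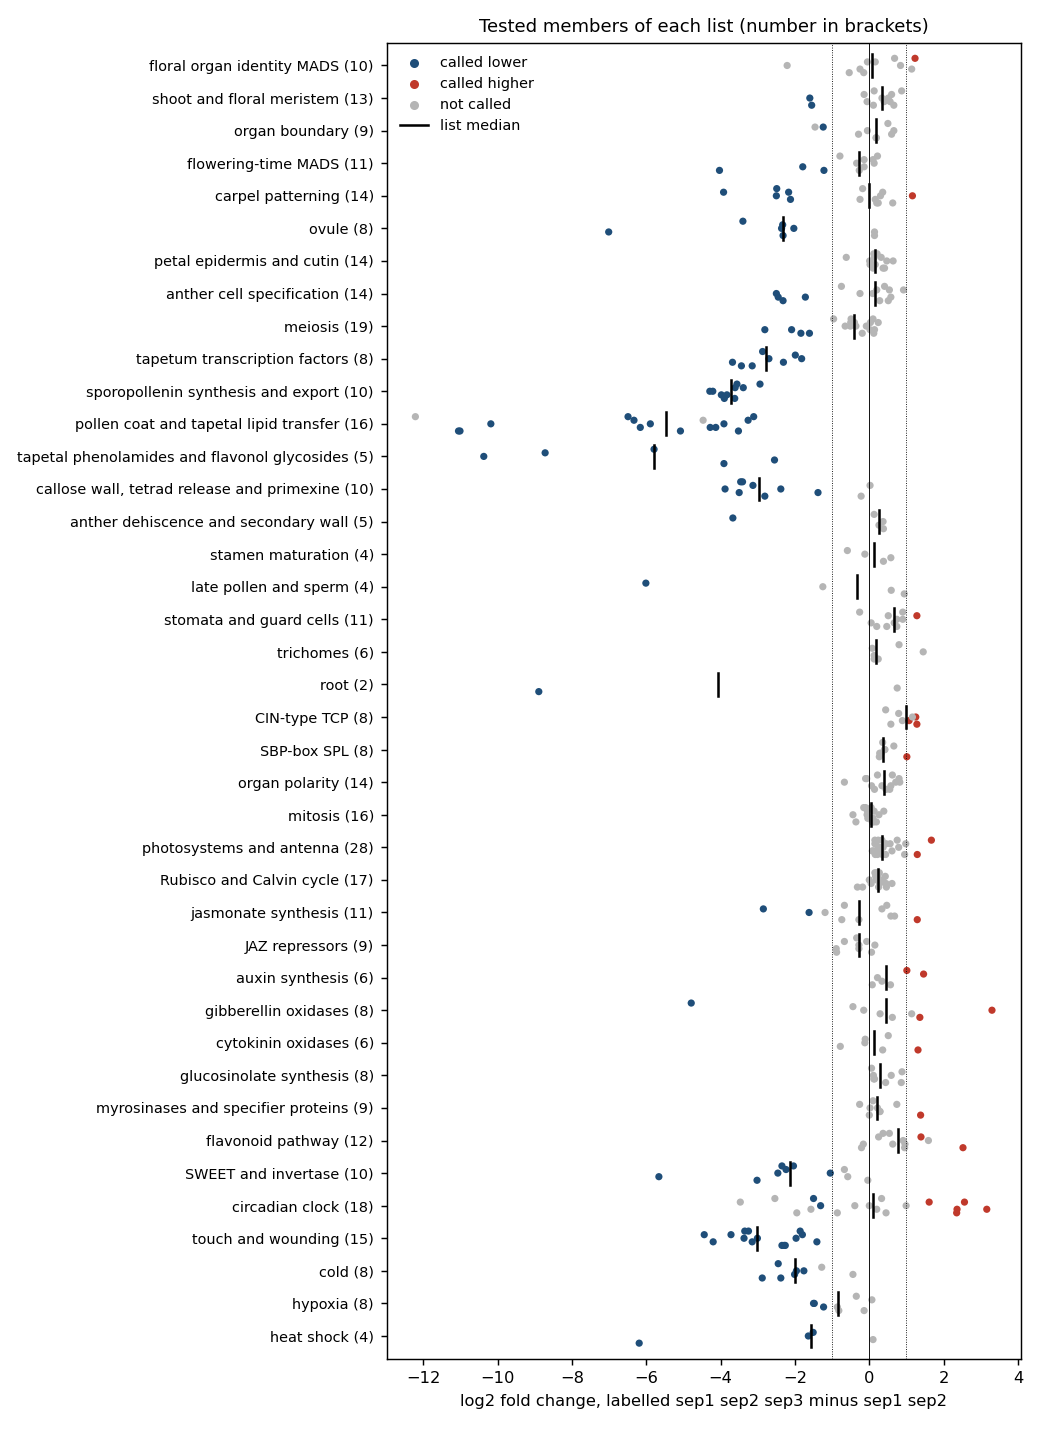
Each row is a gene list with the number of tested members in brackets, each point is a member at its log2 fold change (labelled *sep1 sep2 sep3* minus *sep1 sep2*), and a black bar marks the list median. Blue points were called lower, red points were called higher and grey points were not called. The tapetum, sporopollenin, pollen coat, phenolamide and callose lists lie far to the left with medians from -2.79 to -5.79, while the petal, mitosis, polarity and photosystem lists lie near or right of 0.

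In the anther, some of the early specification genes fell. Of 14 genes of anther cell specification, 4 were lower (28.6%, against 7.18% over all genes), 0 were higher and the median was 0.14. *SPL/NZZ*, which starts the sporogenous lineage in anthers and ovules, fell from 12.1 and 14.4 CPM to 2.74 and 2.56 CPM (log2 fold change -2.32, SE 0.17, FDR 0.000394). The bZIP factors *TGA9* and *TGA10* fell 5.66-fold and 3.29-fold, and *ROXY2*, a glutaredoxin that acts with them in anther lobes, fell 5.46-fold. Their levels in the SEP3 lines were at or above those of *sep1 sep2* in *TGA9* (32.3 and 28.1 CPM against 22.4 and 26.7 CPM) and in *TGA10* (19.1 and 22.3 CPM against 14.8 and 14.8 CPM). The other 10 members, mostly receptors and their ligands, ranged from a log2 fold change of -0.75 to 0.92 and were not called.

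Of 19 tested meiosis genes 4 were lower (21.1%, against 7.18% over all genes) and 0 were higher, with a median of -0.40. *TDM1*, which is needed to leave meiosis, fell from 9.0 and 12.1 CPM to 1.91 and 1.11 CPM (log2 fold change -2.81, SE 0.29, FDR 0.00119). *MMD1*, a PHD-finger protein of male meiosis, fell 4.27-fold. *ASY1*, of the chromosome axis, and *SYN1*, the meiotic cohesin subunit, fell 3.60-fold and 3.06-fold. With *sep1 sep2* replicate 2 or replicate 2 of the libraries labelled *sep1 sep2 sep3* left out, the list had 2 lower genes. The 16 tested mitotic cyclin, kinase and spindle genes gave 0 calls with a median of 0.05. *KNOLLE*, the syntaxin of the cell plate, was at 123 and 149 CPM against 139 and 147 CPM.

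The genes that control the tapetum fell as a group. All 8 tested tapetum transcription factors were lower, against 7.18% over all genes. Their log2 fold changes ran from -3.68 to -1.82, against a median of -0.01 over all genes. *DYT1*, the bHLH factor at the head of the tapetal cascade, fell from 3.18 and 4.59 CPM to 0.665 and 0.404 CPM, and its SEP3 lines had 3.94 and 5.82 CPM. *AMS*, the bHLH factor that acts below it, had 4092 and 4702 counts in *sep1 sep2* (163 and 196 CPM) and 548 and 522 counts in those labelled *sep1 sep2 sep3*. It was 8.89-fold lower, with 234 and 179 CPM in the SEP3 lines (log2 fold change -3.15, SE 0.19, FDR 0.000382). *MYB80*, a further factor of the cascade, fell 12.6-fold. *MS1*, the PHD-finger factor of late tapetum development, fell 10.7-fold from 23.9 and 32.1 CPM to 3.91 and 1.35 CPM. The SEP3 lines differed in *MS1*, with 24.6 CPM in line 1 and 7.11 CPM in line 2.

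All 10 genes of sporopollenin synthesis and export, which build the outer pollen wall, were lower, against 7.18% over all genes. Their log2 fold changes ran from -4.29 to -2.94. They stayed at 10 of 10 in each of the 4 fits that left out a library. The fatty acid steps fell together. *ACOS5*, the acyl-CoA synthetase, went from 448 and 529 CPM to 34.9 and 27.2 CPM (log2 fold change -3.98, SE 0.27, FDR 0.000382). *CYP703A2*, the fatty acid hydroxylase, went from 151 and 189 CPM to 9.82 and 8.56 CPM. *MS2*, the fatty acyl reductase, went from 356 and 368 CPM to 25.2 and 12 CPM, and *LAP5*, a polyketide synthase, from 375 and 457 CPM to 30.8 and 25.1 CPM. The groups did not overlap in these genes, as in 61.7% of all genes tested. SEP3 line 1 had *MS2* at 353 CPM and line 2 at 147 CPM.

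The pollen coat and tapetal lipid transfer list fell further, with 14 of 16 tested genes lower (87.5%, against 7.18% over all genes) and 0 higher. The median was -5.48, or -4.83 with genes at or under 3 counts set to their lower bound. *ATA27*, a tapetal beta-glucosidase, was at 144 and 38.5 CPM in *sep1 sep2* and at 0.0832 and 0.0674 CPM in those labelled *sep1 sep2 sep3*, at least 733-fold lower (FDR 0.0322). *GRP20*, an oleosin-domain protein of the pollen coat, and *EXL6*, an extracellular lipase of the coat, were not counted in either library labelled *sep1 sep2 sep3*. They were at least 77.2-fold and 79.4-fold lower. These late genes were uneven within *sep1 sep2*, where *GRP20* had 15.6 and 3.67 CPM, *EXL6* 15.7 and 4.09 CPM and *EXL4* 26.0 and 8.51 CPM, each higher in replicate 1. The count of lower genes on the list was 8 without *sep1 sep2* replicate 1, 10 without *sep1 sep2* replicate 2 and 8 or 7 without replicate 1 or 2 of the libraries labelled *sep1 sep2 sep3*.

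Genes for phenolamides and flavonol glycosides of the tapetum were lower in 5 of 5, against 7.18% over all genes, with a median of -5.79. *SHT*, the spermidine acyltransferase, was at 73.6 and 37.5 CPM in *sep1 sep2*, at 0.0832 and 0 CPM in those labelled *sep1 sep2 sep3* and at 33.1 and 0.323 CPM in SEP3 lines 1 and 2, at least 446-fold lower (FDR 0.0222). *TSM1*, an O-methyltransferase of the same pathway, was at 119 and 72.2 CPM against 0.166 and 0.27 CPM, and the hydroxylase *CYP98A8* fell 15.0-fold. *UGT79B6*, a flavonol glycosyltransferase, fell 51.4-fold. The summed level of the list was 133 CPM in line 1 and 8.56 CPM in line 2. The lines form a group of the fit, so this difference between them enters the SE and FDR of these genes. Left-out libraries reduced the calls to 0 without *sep1 sep2* replicate 1, 2 without *sep1 sep2* replicate 2, and 1 or 0 without replicate 1 or 2 of the libraries labelled *sep1 sep2 sep3*.

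Of 10 genes of the callose wall, tetrad release and primexine, 8 were lower (80%, against 7.18% over all genes). None was higher, and the median was -2.97. *MEE48*, a beta-1,3-glucanase of the tapetum also known as A6, was at 787 and 836 CPM in *sep1 sep2*, at 75.4 and 72.3 CPM in those labelled *sep1 sep2 sep3* and at 820 and 472 CPM in the SEP3 lines (log2 fold change -3.46, SE 0.25, FDR 0.000394). *QRT1* and *QRT2*, pectin enzymes that free the microspores from the tetrad, fell 11.1-fold and 14.8-fold. *SWEET8*, a sugar carrier of the tapetum, fell 10.6-fold. The 8 calls were kept in number in each fit that left out a library. Sugar supply genes fell beyond this carrier, with 7 of 10 SWEET and invertase genes lower (70%, against 7.18% over all genes). *CWINV4*, a cell wall invertase of nectaries, fell from 5.49 and 2.59 CPM to 0.166 and 0 CPM. *SWEET15* and *SWEET7* fell 5.50-fold and 5.08-fold, and *SWEET13*, a carrier of anthers, fell 8.61-fold.

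**Figure D3:**
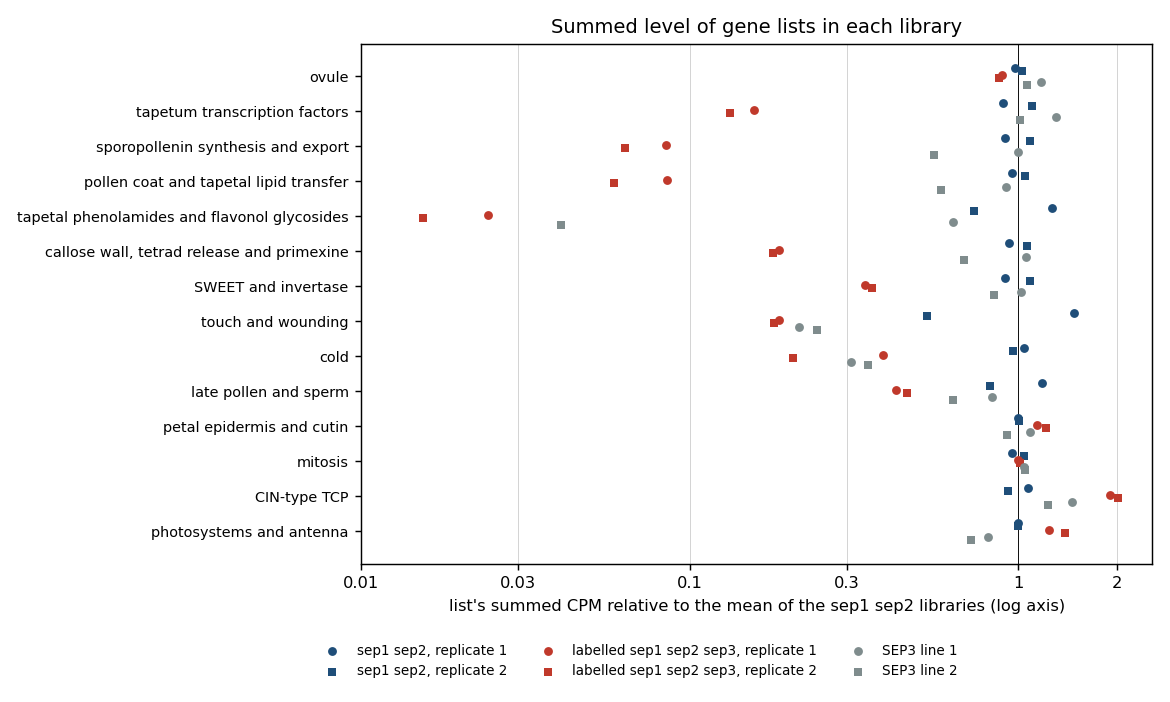
Each row is a gene list, and each point is the summed CPM of its members in 1 library, divided by the mean of the *sep1 sep2* libraries, on a log axis. The libraries labelled *sep1 sep2 sep3* (red) lie furthest to the left for phenolamides, sporopollenin and pollen coat genes. The sums of photosystem and TCP genes lie to the right of 1 in these libraries, and SEP3 line 2 (grey square) lies far left for phenolamides.

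Genes of later stamen stages were mostly under the filter. Of 16 genes of mature pollen and sperm 4 were tested, and *STP2*, a monosaccharide carrier of early pollen development, was the lower gene among them, at 15.8 and 9.09 CPM against 0.333 and 0.0674 CPM (log2 fold change -6.01, SE 0.79, FDR 0.00295). Of 8 genes of anther opening and secondary walls 5 were tested. *MYB26*, which starts the secondary wall of the anther endothecium, fell 13.6-fold from 2.47 and 2.34 CPM to 0.0832 and 0.27 CPM. In the stamen maturation list *ARF6* and *ARF8*, auxin response factors with wide expression, were at 318 and 242 CPM against 346 and 385 CPM and at 165 and 135 CPM against 201 and 245 CPM. Neither was called.

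Of the petal epidermis and cutin list 0 genes were called. Its 14 tested genes had log2 fold changes from -0.62 to 0.64 and a median of 0.14. *DCR*, an acyltransferase of cutin synthesis, was at 621 and 666 CPM against 696 and 739 CPM, and AT5G33370, a cutin synthase, was at 765 and 731 CPM against 897 and 965 CPM. Cutin genes are expressed in the epidermis of other organs too. Among trichome genes 0 of 6 were called.

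**Figure D4:**
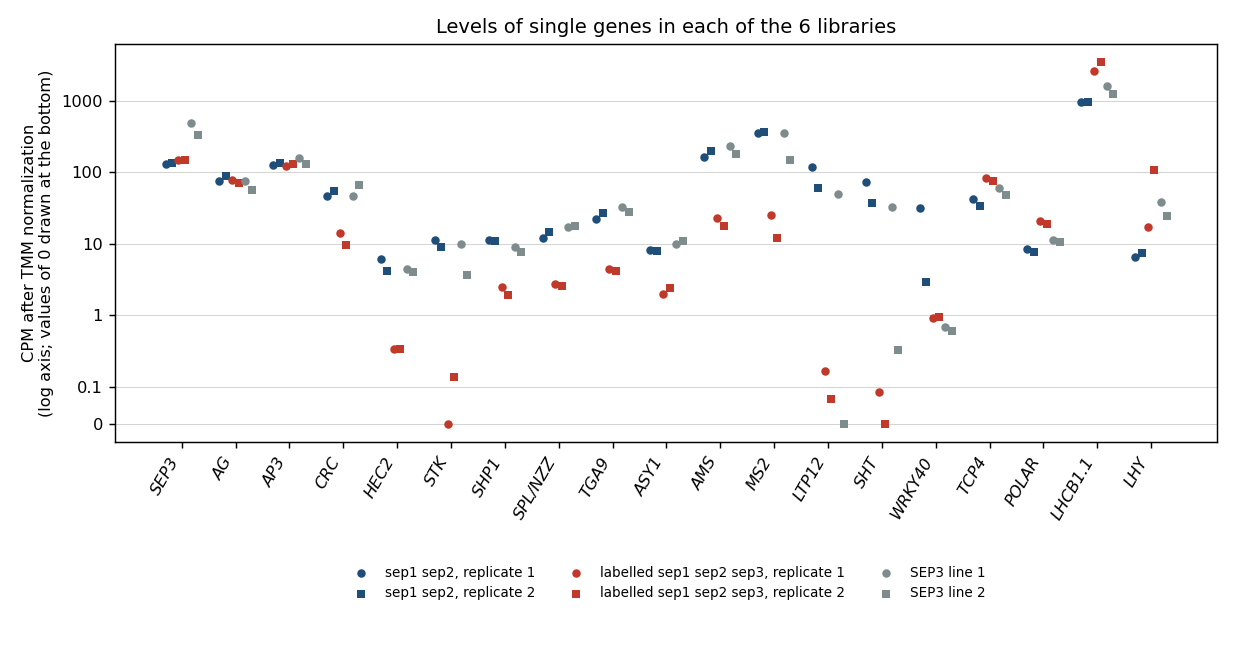
The CPM of single genes in each of the 6 libraries is shown on a log axis, with values of 0 at the bottom, for *sep1 sep2* (blue), the libraries labelled *sep1 sep2 sep3* (red) and the SEP3 lines (grey). *AG* and *AP3* overlap across genotypes, *STK*, *AMS*, *MS2*, *LTP12* and *SHT* fall in the libraries drawn in red, and *TCP4*, *POLAR*, *LHCB1.1* and *LHY* rise there. *WRKY40* is high in *sep1 sep2* replicate 1 only.

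The largest falls outside the lists were in genes of several annotations. *LTP12*, a lipid transfer protein, was at 120 and 59.4 CPM in *sep1 sep2*, at 0.166 and 0.0674 CPM in those labelled *sep1 sep2 sep3* and at 49.8 and 0 CPM in SEP3 lines 1 and 2. AT1G20130, a GDSL lipase, was at 115 and 24.4 CPM against 0.0832 and 0.135 CPM, 642-fold lower (FDR 0.0308). *LBD20*, a LOB-domain transcription factor, was at 31.1 and 29.5 CPM against 0.0832 and 0 CPM, at least 243-fold lower. AT2G28680, a cupin protein, AT4G28397, a lipid transfer-like protein, and AT5G16960, a zinc-binding dehydrogenase, fell 173-fold, 208-fold and 333-fold. AT1G68875, of unknown function, was at least 261-fold lower. Among the lower genes with the highest counts were AT3G15450 at 616 and 726 CPM against 149 and 159 CPM, *CCL* at 529 and 449 CPM against 239 and 104 CPM and the cysteine protease *RD19* at 442 and 418 CPM against 218 and 125 CPM. SEP3 line 2 had 634 CPM of AT3G15450 and line 1 had 215 CPM.

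Families defined by the annotated product were counted after their values were seen. Lipid transfer proteins were lower in 18 of 50 tested genes (36%), kelch repeat proteins in 22 of 81 (27.2%), TRAF-like proteins in 9 of 32 (28.1%), F-box proteins in 47 of 199 (23.6%), MADS factors in 10 of 39 (25.6%) and NAC factors in 15 of 69 (21.7%). Receptor-like kinases were lower in 8 of 214 (3.74%) and ribosomal proteins in 7 of 319 (2.19%), below the 7.18% over all genes. The families were not matched for level. Over all genes, the share called lower was 18.2% from 1 to 5 CPM in *sep1 sep2* and 9.22% from 5 to 20 CPM. It was 2.96% from 20 to 100 CPM and 3.35% above 100 CPM. Some families fell as blocks of neighbours. On chromosome 2, 7 of 7 tested kelch genes from AT2G29600 to AT2G29830, within 76.4 kb, were lower with a median of -4.25. Their summed level was 43.1 and 58.9 CPM in *sep1 sep2*, 4.91 and 3.44 CPM in those labelled *sep1 sep2 sep3* and 65 and 48.1 CPM in the SEP3 lines. On chromosome 3, 6 of 9 TRAF-like genes between AT3G58200 and AT3G58440 were lower, and the uncalled AT3G58220 was at 44.7 and 40.0 CPM against 46.8 and 41.1 CPM. On chromosome 1, 3 of 3 GDSL lipase genes from AT1G20120 to AT1G20132 summed to 148 and 37.5 CPM against 0.416 and 0.674 CPM. Of 100 such groups with at least 3 tested members, 7 had 3 or more lower genes. Reads that map to several places were not counted by the authors, so values of near-identical neighbours are uncertain.

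A separate set of falls concerned genes of quick responses. All 15 tested touch and wounding genes were lower, against 7.18% over all genes, with a median of -3.01. However, they were uneven between the *sep1 sep2* libraries. Their summed level was 566 CPM in *sep1 sep2* replicate 1 and 203 CPM in replicate 2, 72 and 69.1 CPM in those labelled *sep1 sep2 sep3*, and 82.4 and 93.7 CPM in the SEP3 lines. *WRKY40*, a factor induced within minutes of wounding or elicitors, was at 31.4 and 2.92 CPM against 0.915 and 0.944 CPM (log2 fold change -4.20, SE 0.98, FDR 0.0273). *TCH4*, a touch-induced cell wall enzyme, was at 54.3 and 17.9 CPM against 1.83 and 3.57 CPM, and the zinc finger factor *ZAT10* at 15.8 and 5.26 CPM against 0.416 and 0.539 CPM. *ERF105*, an ethylene response factor, fell 10.1-fold. In these genes both SEP3 lines were far under *sep1 sep2* replicate 1, as with *WRKY40* at 0.677 and 0.606 CPM. The calls came to 8 without *sep1 sep2* replicate 1, 15 without *sep1 sep2* replicate 2, and 9 or 3 without replicate 1 or 2 of the libraries labelled *sep1 sep2 sep3*. How far handling before harvest differed between the samples was not tested.

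Of 8 tested cold response genes 6 were lower (75%, against 7.18% over all genes) and 0 were higher, with a median of -1.99. *KIN2*, a cold-induced protein and the lower gene with the highest mean count, was at 1407 and 1355 CPM in *sep1 sep2*, at 501 and 317 CPM in those labelled *sep1 sep2 sep3* and at 469 and 523 CPM in the SEP3 lines. *COR47*, a dehydrin, was at 142 and 112 CPM against 25.3 and 21.2 CPM, and *COR78* at 97.8 and 48.0 CPM against 20.5 and 7.82 CPM. *CBF1*, the factor that induces such genes, fell 7.22-fold at low counts. The summed level in the SEP3 lines, 646 and 726 CPM, lay in the range of the libraries labelled *sep1 sep2 sep3* (806 and 431 CPM) and under *sep1 sep2* (2170 and 2007 CPM). Without *sep1 sep2* replicate 1 the list had 3 lower genes. Among hypoxia genes *ADH1*, *PDC1* and *FTM1* were lower, 3 of 8, and only 1 without replicate 2 of the libraries labelled *sep1 sep2 sep3*. Of 4 tested heat shock and chaperone genes 3 were lower. *HSP90.1* and *HSP70* fell 2.83-fold and 3.12-fold, and *BIP3*, a chaperone of the endoplasmic reticulum, was at least 24.6-fold lower.

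The rises were fewer and smaller. Of 8 CIN-type TCP genes, which hold back cell division in growing leaves and sepals, 3 were higher (37.5%, against 0.949% over all genes) and 0 were lower. All 8 had positive log2 fold changes, with a median of 0.98. *TCP4* rose from 42.4 and 33.6 CPM to 83.6 and 76.1 CPM (log2 fold change 1.07, SE 0.15, FDR 0.00368), with 60.3 and 48.5 CPM in the SEP3 lines. *TCP10* rose from 51.6 and 43.6 CPM to 101 and 130 CPM, and *TCP17* from 3.14 and 2.42 CPM to 6.32 and 6.94 CPM. Without *sep1 sep2* replicate 2 the list had 1 higher gene. *SPL5*, a flowering-promoting SBP-box factor, rose 2.01-fold, 1 of 8 on its list, and was not called in 3 of the 4 fits that left out a library. Organ polarity genes gave 0 calls in 14 with a median of 0.40, where *AS1* was at 143 and 169 CPM against 243 and 223 CPM and *REV* at 111 and 117 CPM against 165 and 168 CPM. *AP2*, a sepal and petal identity factor outside the lists and named after its values were seen, rose from 49.9 and 56.6 CPM to 116 and 108 CPM (log2 fold change 1.07, SE 0.13, FDR 0.0025), and its SEP3 lines had 71.0 and 55.2 CPM.

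Genes of the stomatal lineage gave 1 higher gene in 11 (9.09%, against 0.949% over all genes) and a median of 0.67. *POLAR*, a protein of asymmetrically dividing stomatal precursors, rose from 8.32 and 7.76 CPM to 20.6 and 18.6 CPM (log2 fold change 1.28, SE 0.14, FDR 0.00144). Of 28 genes of the photosystems and their antennae 2 were higher (7.14%), all 28 had positive log2 fold changes, and the median was 0.33. *LHCB1.1*, an antenna protein, rose 3.17-fold from 959 and 977 CPM to 2641 and 3503 CPM, and *LHCB2.3* from 103 and 96.6 CPM to 167 and 323 CPM. *LHCB1.1* lies 1.88 Mb from *SEP3*, and its SEP3 lines had 1605 and 1269 CPM. The list had 1 higher gene without replicate 2 of either genotype and 4 without replicate 1 of the libraries labelled *sep1 sep2 sep3*, and 1 with a replicate block. The antenna genes *LHCB1.1* to *LHCB1.3* are close copies, and *LHCB1.3* was at 6731 and 6518 CPM against 7169 and 6815 CPM, so that the division of counts among them is uncertain. The Calvin cycle genes gave 0 calls in 17 with a median of 0.23, and *RBCS1A*, the main Rubisco small subunit, was at 6490 and 6335 CPM against 6751 and 7458 CPM.

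Hormone genes moved one by one. Over all genes 7.18% were lower and 0.949% were higher, and the hormone lists are too short to set against these shares. Of 8 tested gibberellin oxidases 1 was lower and 2 were higher. *GA2OX6*, which inactivates gibberellin, fell 29.5-fold from 5.14 and 3.3 CPM to 0.0832 and 0.202 CPM, while *GA2OX8*, of the same reaction class, rose 2.57-fold. Without *sep1 sep2* replicate 2 the list had 0 higher genes. *GA2OX1* and *GA2OX2* were at 11.9 and 13.5 CPM against 12.5 and 10.4 CPM and at 26.4 and 15.8 CPM against 14.3 and 16.8 CPM. The auxin synthesis genes *YUC2* and *YUC4* rose 2.76-fold and 2.01-fold, 2 of 6. The list had 0 calls when either *sep1 sep2* library or replicate 1 of those labelled *sep1 sep2 sep3* was left out. *CKX1*, which degrades cytokinin, rose from 7.52 and 6.88 CPM to 16 and 19.7 CPM. In jasmonate synthesis 2 of 11 genes were lower and 1 was higher. The lipoxygenase *LOX4* was at 39.1 and 10.5 CPM against 3.83 and 3.1 CPM and *AOC3*, an allene oxide cyclase, at 32.3 and 11.8 CPM against 7.24 and 7.08 CPM, both higher in *sep1 sep2* replicate 1. Without replicate 1 or 2 of the libraries labelled *sep1 sep2 sep3* the list had 0 lower genes, and it had 1 without *sep1 sep2* replicate 1 and 3 without replicate 2. The paralog *AOC1* rose from 3.26 and 4.17 CPM to 8.11 and 10.0 CPM, and the list had 0 higher genes without *sep1 sep2* replicate 1 or replicate 2 of the libraries labelled *sep1 sep2 sep3*. The JAZ repressors of jasmonate signalling gave 0 calls in 9, and 2 lower genes without *sep1 sep2* replicate 2.

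In the flavonoid pathway 2 of 12 tested genes were higher (16.7%, against 0.949% over all genes), with a median of 0.77. *DFR*, which leads to anthocyanins, was at 0.876 and 1.59 CPM against 3.74 and 10.3 CPM and *MYB11*, a flavonol regulator, at 2.35 and 1.63 CPM against 4.99 and 5.46 CPM. Both SEP3 lines were within or near the range of *sep1 sep2* for *DFR* (2.09 and 1.29 CPM), and the list had 0 higher genes without replicate 2 of the libraries labelled *sep1 sep2 sep3*. The glucosinolate synthesis genes gave 0 calls in 8. Of 9 tested genes of myrosinases and specifier proteins 1 was higher and 0 were lower. This was *ESM1*, at 284 and 240 CPM against 692 and 668 CPM, with 167 and 95.9 CPM in SEP3 lines 1 and 2. *MSRB5*, a methionine sulfoxide reductase gene on chromosome 4 and among the 10 largest rises, rose 6.41-fold. It was at 5.72 and 2.99 CPM in the SEP3 lines. Among the higher genes with the highest counts were *ATH13*, a chloroplast ABC1-like kinase, *MIPS2*, which makes inositol phosphate, and *CSLA10*, a glucomannan synthase-like gene, at 2.02-fold, 2.01-fold and 2.5-fold. *CSLA10* lies 0.08 Mb from *SEP3*, and was at 103 and 101 CPM in *sep1 sep2* and at 196 and 165 CPM in the SEP3 lines.

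Clock genes moved in both directions and differed between replicates. Of 18 tested genes 5 were higher (27.8%, against 0.949% over all genes) and 2 were lower (11.1%, against 7.18%). *LHY*, a morning-phase MYB factor of the clock, had 162 and 178 counts in *sep1 sep2* and 418 and 3161 counts in those labelled *sep1 sep2 sep3*, or 8.93-fold more per library size, and was at 38.7 and 24.4 CPM in the SEP3 lines. *CCA1*, its closest paralog, was at 8.64 and 9.93 CPM against 25.2 and 69.0 CPM and *RVE8*, a related activator, at 3.11 and 4.59 CPM against 8.03 and 31.3 CPM. Morning genes were thus highest in replicate 2 of the libraries labelled *sep1 sep2 sep3*. The evening genes *TOC1* and *LUX*, the 2 lower genes and named after their values were seen, went from 142 and 110 CPM to 64.3 and 37.3 CPM and from 55.1 and 51.6 CPM to 26.3 and 11.5 CPM. *PRR7* was at 160 and 149 CPM against 171 and 138 CPM. Across fits that left out a library, the list had 1, 1, 6 and 3 higher and 0, 0, 7 and 0 lower genes without *sep1 sep2* replicate 1 or 2 and without replicate 1 or 2 of the libraries labelled *sep1 sep2 sep3*. The hour of harvest of each library was not tested.

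*PRR9*, a morning pseudo-response regulator, was more even, at 2.71 and 2.84 CPM in *sep1 sep2*, 13.2 and 19.5 CPM in those labelled *sep1 sep2 sep3* and 12 and 6.38 CPM in the SEP3 lines (log2 fold change 2.56, SE 0.34, FDR 0.00303). The 300 bases before its start, at chr2:19232307-19232606 on the plus strand of TAIR10.1, are shown because the G-box (CACGTG, both strands), a light and clock element, was found in a larger share of the higher genes than of all genes. Capitals mark the G-boxes.
PRR9: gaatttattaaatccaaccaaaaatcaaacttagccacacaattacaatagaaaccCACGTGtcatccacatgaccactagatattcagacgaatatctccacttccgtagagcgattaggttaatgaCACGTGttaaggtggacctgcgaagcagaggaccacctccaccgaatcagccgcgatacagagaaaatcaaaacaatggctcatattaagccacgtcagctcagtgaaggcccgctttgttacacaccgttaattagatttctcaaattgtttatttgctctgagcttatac
The window held 2 G-boxes, which begin 244 and 172 bases before the start. A G-box was found before 15.1% of the 172 higher genes with a window, 7.7% of the lower genes and 8.02% of all genes with a window, and before 6 of the 18 clock genes. Every G-box is also an E-box (CANNTG), which was found before 69.8% of higher, 57.2% of lower and 62.3% of all genes. These shares were not tested, and draw on the same calls as the counts above.

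By position, higher genes were unevenly spread. On chromosome 1, which carries *SEP3*, 80 of 4948 tested genes were higher (1.62%), against 0.343% on chromosome 5. Within 4 Mb of the *SEP3* start, a distance chosen after the data were seen, 50 of 1436 genes were higher (3.48%), against 122 of 17297 elsewhere (0.705%). The share was 4.11% within 1 Mb, 3.66% from 1 to 2 Mb and 3.07% from 2 to 4 Mb, and 1.12% from 4 to 8 Mb. These distances pool both sides, and single blocks of 1 Mb were less even. The block at -1 Mb had 0.575% higher genes, between 4.95% at -2 Mb and 5.88% in the block that holds *SEP3*. Around *SEP1* and *SEP2* the shares within 4 Mb were 0.309 and 0.577%. Lower genes made up 11.5% of the genes within 1 Mb of *SEP3*, 8.73% from 1 to 2 Mb, 6.15% from 2 to 4 Mb and 6.71% from 4 to 8 Mb. Within 4 Mb as a whole they made up 8.15%, against 7.06% elsewhere.

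Most of the largest rises lay in this stretch. AT1G23960, of unknown function (chromosome 1, 8478391 to 8480356), was at 4.54 and 0.501 CPM in *sep1 sep2*, at 38.8 and 37.2 CPM in those labelled *sep1 sep2 sep3* and at 39.6 and 47.1 CPM in the SEP3 lines (log2 fold change 3.90, SE 0.59, FDR 0.00509). AT1G23935, AT1G23940 and AT1G23950, neighbours by locus number, rose 22.1-fold, 13-fold and 11.1-fold, and AT1G23935 overlaps AT1G23950 on the opposite strand. AT1G25211, an F-box gene, rose 17-fold, *PAI3*, a tryptophan synthesis gene, 9.61-fold and AT1G27180, a TIR-NBS-LRR resistance gene, 7.42-fold. AT1G11280, a receptor-like kinase on the same chromosome but beyond 4 Mb, was at 5.65 and 4.59 CPM against 49.1 and 53.6 CPM. In these genes the SEP3 lines stayed at the level of the libraries labelled *sep1 sep2 sep3*, as with AT1G11280 at 52.4 and 44.8 CPM. Over the 50 higher genes within 4 Mb, the median level was 3.07 and 1.65 CPM in *sep1 sep2*, 10.6 and 10.8 CPM in those labelled *sep1 sep2 sep3* and 9.18 and 10.3 CPM in the SEP3 lines. Over the other 122 the medians were 5.29 and 5.42, 12.3 and 16.1, and 9.54 and 7.55 CPM. The part of the chromosome stretch around the *sep3* allele in these rises was not tested. Without *sep1 sep2* replicate 2, 27 genes within 4 Mb and 44 elsewhere were higher, and without replicate 2 of the libraries labelled *sep1 sep2 sep3*, 22 and 39.

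**Figure D5:**
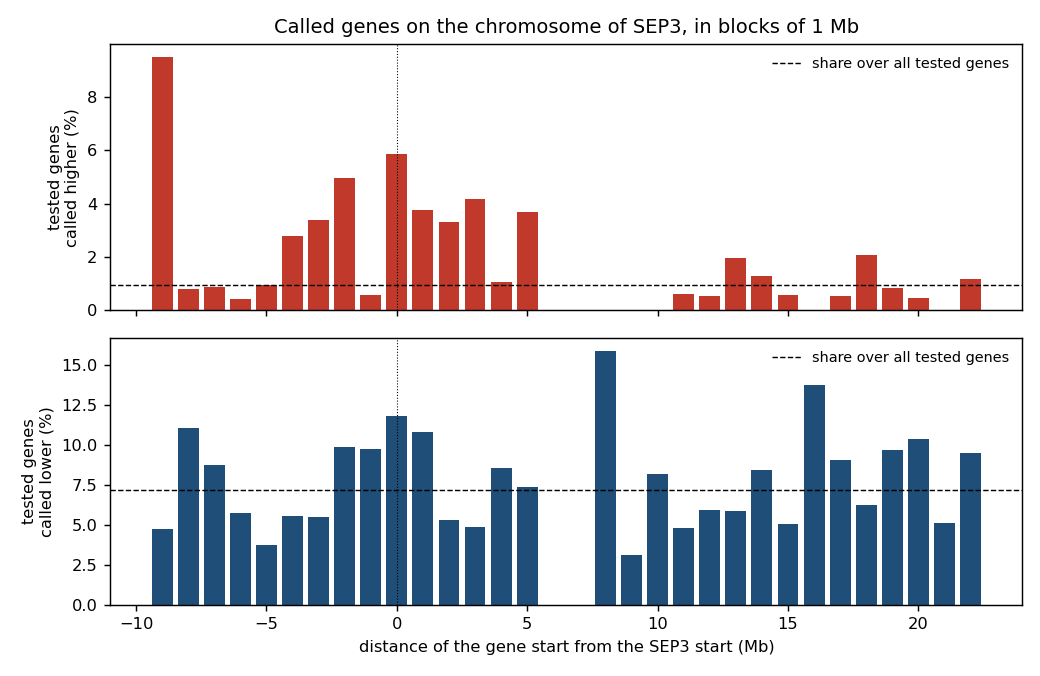
The share of tested genes called higher (top, red) and lower (bottom, blue) is shown in blocks of 1 Mb along chromosome 1 by distance from the *SEP3* start, with a dashed line at the share over all tested genes (0.949 and 7.18%). Blocks within 4 Mb of *SEP3* reach 5.88% higher genes, and the lower genes reach 11.8% in the block that holds *SEP3*. The leftmost block holds 21 genes with 2 higher. The blocks at 6 and 7 Mb, which hold only 4 and 8 tested genes, are not drawn.

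FeatureCount does not use strand at its defaults. In the stretch that a gene shares with a gene on the opposite strand, their reads cannot be told apart, and the counts of both genes are uncertain. Among the genes named by rule this concerns *SEP1*, *FLC*, *CRC*, *ALC*, *STK*, *SHP1*, *SHP2*, *VDD*, *TDM1*, *ASY1*, *SYN1*, *AMS*, *LAP5*, *SHT*, *CYP98A8*, *QRT1*, *QRT2*, *POLAR*, *SPL5*, *AS1*, *REV*, *KNOLLE*, *LHCB2.3*, *CKX1*, *MYB11*, *WRKY40*, *ERF105*, *ADH1*, *MIPS2*, AT5G16960, AT3G15450, AT1G23935, AT1G23950 and AT1G25211. It also concerns *GL2*, *JAZ12*, *RCA* and *LNK2*, which the rule picked. Over all tested genes 27.4% had such a neighbour, against 18.2% of the lower and 23.5% of the higher genes.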

How the data were processed

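The authors aligned paired reads of poly A libraries with STAR to the TAIR10 genome, dropped multimapping reads and used FeatureCount at its defaults (versions not given in the sources used here). They deposited raw counts per gene without normalization, used here as deposited. Since 86.06 to 88.34% of small counts (1 to 20) were even, counts divided by 2 were tried. The deposited comparison tables hold the authors' own fold changes and p-values and were not used.

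Genes with at least 1 CPM in 2 of the 4 compared libraries entered a model of genotype means over the 6 libraries in edgeR 4.0.16 (R 4.3.3, TMM, prior count 0.125, quasi-likelihood test). As in the paper, a call needed an FDR (Benjamini-Hochberg, over all 18860 genes) under 0.05 together with a log2 fold change beyond 1 or -1. Values are CPM after TMM. The standard error is the log2 fold change over the root of its F statistic. It also takes in the spread between the SEP3 lines, which form a group of the fit. A fold against a group with at most 3 counts in each library is a lower bound at a floor of 3 counts per library, which covers counting error only. CPM values are not scaled to gene length, so levels were not compared between genes. Replicates differed by more than sampling noise (chi-square per degree of freedom 14.5 and 15.9).

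The comparison, the gene lists and the families were chosen with earlier results of these data known. Genes named are the SEP genes and their partners, up to 4 called members of each list with the largest change among those with a mean of at least 1 CPM and groups that do not overlap (up to 2 with the highest mean where none was called or members moved both ways), the 10 largest falls and rises with at least 5 CPM, and the 5 called genes with the highest mean in each direction. Some genes picked by this rule, among them *LNK2*, *KIN1* and *RCA*, are not described. Coordinates, products and sequences are from RefSeq TAIR10.1, matched by locus for 18733 genes. The fit was tested on simulated data. DESeq2 1.42.0, other filters, a replicate block and leaving out each library were alternatives.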

Additional observations from a re-analysis of the deposited data

How the results depend on the processing

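All 1354 lower and 179 higher genes kept the sign of their change in each of the 14 other settings run. For several settings this was nearly fixed in advance. The groups overlapped in none of these genes, so leaving out a library could hardly reverse a sign. The settings that changed only the fold threshold kept the same fold changes. The counts of lower and higher genes were 1334 and 189 with DESeq2 size factors, 1411 and 219 with the DESeq2 test, 1859 and 239 without a filter on low counts, 1635 and 198 with filterByExpr, 1442 and 217 with only the 4 compared libraries and 1377 and 189 with counts divided by 2. Without a fold threshold 1856 genes were lower and 1022 higher, and with glmTreat, which tests against the fold threshold itself, 739 and 31. Leaving out each library gave 765 to 1127 lower and 66 to 185 higher genes, with the lone library of a group assumed to vary like the others.

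The replicate numbers are shared between groups by number only, and deviations of equally numbered libraries correlated at -0.129 over 15561 genes. A replicate block gave 1211 lower and 138 higher genes, and a crossed replicate block, added after seeing the data, 1244 and 160.

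Of the 110 called genes that the naming rule picked, many lost their call with a library left out. That 0 of them changed sign was nearly fixed in advance, since their groups do not overlap. A few of these genes are not described above. Among uncalled genes some log2 fold changes changed sign with a library left out. They ranged from -0.09 without *sep1 sep2* replicate 1 to 0.00 without replicate 2 for *AP3*, from 0.30 to -0.02 for *GL2*, from -0.05 to 0.22 for *KNOLLE* and from 0.02 to -0.16 for *JAZ12*. For *PRR7* the value was 0.01 with DESeq2 size factors, the DESeq2 test, either other filter or only the 4 libraries, and 0.06, -0.16 and 0.14 without *sep1 sep2* replicate 1 and without replicate 1 and 2 of the libraries labelled *sep1 sep2 sep3*. The cause was not tested. With 2 libraries per group, depth limits genes near 1 CPM, where 3 counts are 0.101 CPM in the deepest of the 4 libraries.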
